A study of Mus musculus with 7 samples.

Results

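Mammary glands at lactation day 1 were compared between mice that keep Tardbp in the mammary epithelium and mice that lose it there, for 38 genes of zinc, iron and copper handling out of the 37310 genes of the deposited table. Tardbp encodes the RNA-binding protein TDP-43. The genes were taken by name: 24 handle zinc, 9 handle iron and 5 handle copper. The WT mice were Tardbp wt/wt and the Tardbp KO mice were Tardbp fl/fl, in which exons 2 and 3 are removed by Cre. Both genotypes carried the WAP-Cre transgene, whose whey acidic protein promoter is active in luminal epithelial cells from pregnancy on, so the other cells of the gland keep the gene. All mice were C57BL/6, and their ages were not given in the sources used here. RNA came from whole mammary gland, with 3 WT and 4 Tardbp KO libraries of 36007737 to 42811337 counts each. The study describes them as 3 and 4 mice, so the spread between libraries holds the difference between mice together with that of the preparation.

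A lactating gland carries zinc, iron and copper from blood into milk. Zinc is brought into the cytosol by the ZIP proteins (Slc39 genes) and moved out of the cytosol, into vesicles or out of the cell, by the ZnT proteins (Slc30 genes). Metallothioneins bind zinc and copper in the cytosol. Iron enters cells bound to transferrin through the transferrin receptor, is stored in ferritin and leaves through ferroportin. Copper enters through Slc31a1, is passed on by the chaperone Atox1 and is pumped into the secretory pathway or out of the cell by the ATPases Atp7a and Atp7b.

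Part of this control is written in short sequence elements of the genes themselves, shown here because the members that differed most include carriers of both kinds. The iron-responsive element is a hairpin with a bulged C, a stem and the loop CAGTGN, bound by the iron regulatory proteins when iron is scarce. In a 5′ untranslated region it holds back translation, and in the 3′ untranslated region of the transferrin receptor it protects the mRNA. The search asked for a C, then 5 bases that pair with the 5 bases after the loop, G with U allowed. It found the letters in 4 members: once each in the 5′ untranslated regions of Fth1, Ftl1 and Slc40a1 (in exon 1 of each), and 4 times in the 3′ untranslated region of Tfrc (exon 19). The stretches below, of the GENCODE vM1 transcripts on NCBIM37, have the loop in capitals and are 30 bases each.
Fth1, chr19:10057222-10057251 (plus strand): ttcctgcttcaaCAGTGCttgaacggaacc
Ftl1, chr7:52715148-52715177 (minus strand): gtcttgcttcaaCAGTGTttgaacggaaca
Slc40a1, chr1:45982309-45982338 (minus strand): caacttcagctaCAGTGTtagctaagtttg
Tfrc, element A, chr16:32631305-32631334 (plus strand): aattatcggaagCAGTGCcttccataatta
Tfrc, element B, chr16:32631684-32631713 (plus strand): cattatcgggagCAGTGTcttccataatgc
Tfrc, element C, chr16:32631749-32631778 (plus strand): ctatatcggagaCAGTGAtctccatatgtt
Tfrc, element D, chr16:32631796-32631825 (plus strand): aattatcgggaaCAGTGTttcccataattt

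Such a match was found in the longest transcript of 217 of the 15112 tested genes with a protein-coding transcript (1.44%), and 1 of them, Tfrc, had 4 or more. A match of letters is a description and does not show that a protein binds there. The other element is the metal response element, bound by the zinc-sensing factor MTF-1, with the core TGCACNC or TGCGCNC. Its core was searched on both strands in windows from 250 bases before to 50 bases after the start of each gene (RefSeq, GRCm38.p6). Cores outside these windows were not counted. The windows of Mt1 and Mt2, the metallothionein genes, held 3 and 4 cores. Slc30a4 and Slc30a10 held 3 as well, and Slc30a1, Slc30a2, Tfrc and Atp7a held 2 each, so cores stood in members that were higher, lower and level in Tardbp KO. Overlapping cores on opposite strands were counted apart. Those of Tfrc start 53 and 50 bases before the gene start, and 2 of Slc30a10 start 233 and 232 bases before it, so each pair is a single stretch. For Mt1 and Mt2 the stretch up to base 30 of each gene is given with the cores in capitals.
Mt1, chr8:94178839-94179118 (plus strand): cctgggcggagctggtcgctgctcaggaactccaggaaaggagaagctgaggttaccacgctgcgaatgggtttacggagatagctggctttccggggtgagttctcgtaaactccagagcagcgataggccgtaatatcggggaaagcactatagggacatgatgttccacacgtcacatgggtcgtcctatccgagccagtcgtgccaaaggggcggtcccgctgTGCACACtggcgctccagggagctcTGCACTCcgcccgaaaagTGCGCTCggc
Mt2, chr8:94172368-94172647 (plus strand): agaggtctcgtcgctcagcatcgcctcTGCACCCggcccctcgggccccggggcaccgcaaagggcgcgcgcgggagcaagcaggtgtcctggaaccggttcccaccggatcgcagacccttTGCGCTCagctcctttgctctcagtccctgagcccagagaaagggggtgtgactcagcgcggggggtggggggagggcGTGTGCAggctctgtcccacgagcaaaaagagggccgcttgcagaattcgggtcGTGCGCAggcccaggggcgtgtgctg

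Of all 32851 windows, 1.97% held 3 or more cores, 0.517% held 4 or more, and 25.7% held at least 1. Among the 40 windows of the 32 members with an entry, 18 held a core (45%). Slc39a6 was left out of the member windows, while the shares over all windows keep its chromosome.

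The targeted gene was no check of the labels at the level of these counts. Tardbp measured 159 to 223 CPM (the count per library scaled by depth and TMM factor) in WT and 154 to 214 CPM in Tardbp KO, and the log2 fold change was 0.01 with a standard error (SE) of 0.182. The count sums over all exons of the gene in all cells of the gland, so exons 2 and 3 were not seen apart, and groups are named by their labels throughout. Milk protein genes marked the tissue, with Csn2 at 113927 to 152249 CPM in WT and 30945 to 83401 CPM in Tardbp KO. The summed level of the luminal secretory markers (Csn2, Wap, Lalba, Elf5, Krt8 and Krt18) was 168158 to 236417 CPM in WT and 55405 to 125992 CPM in Tardbp KO, without overlap, with 3 of the 6 lower (Wap, Lalba and Elf5) and 1 higher (Krt8) at an unadjusted p under 0.05. The summed level of 6 lymphocyte markers was 21.2 to 29.1 CPM in WT and 39.9 to 317 CPM in Tardbp KO, highest in Tardbp KO replicates 3 and 1, and all 6 were higher at an unadjusted p under 0.05. The 6 myeloid markers summed to 376 to 1496 CPM in WT and 1068 to 2626 CPM in Tardbp KO, and overlapped, with none at an unadjusted p under 0.05. Myoepithelial, adipocyte, endothelial, fibroblast, erythroid and hepatocyte sums overlapped between the genotypes too. Of the 3 hepatocyte markers, Ttr had no count in any library and Alb was at 1.43 to 5.89 CPM. In whole gland RNA, fewer cells of a type and less RNA per cell cannot be told apart.

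Metallothionein transcripts were higher in Tardbp KO glands, and the transferrin receptor transcript was lower. At an unadjusted p under 0.05 in the main test, 9 zinc transporter genes were lower and none was higher, and 1 copper gene of 5, Slc31a1, was lower. Of the 38 members, 36 had enough counts for a test. The main test was edgeR's quasi-likelihood test over 17175 genes, held to the limits that the study's methods set (an adjusted p below 0.01 and a log2 fold change beyond 1 in size), and it called 0.0% of all genes and no member. An unadjusted p under 0.05 was reached by 15 members (41.7%), 3 higher and 12 lower in Tardbp KO, where 21.4% of all genes reached it, 10.7% higher and 10.7% lower. When libraries were scaled by size only, the split of such members was 9 higher (25%) and 7 lower (19.4%), beside 30.8% and 3.05% of all genes under that scaling, and the median log2 fold change of all genes moved from 0.05 to 0.42. At an adjusted p under 0.1 with no limit on the fold, 9 members (25%) stood against 5.43% of all genes, 2 of them higher (2.21% of all genes) and 7 lower (3.22% of all genes). This count was 0 without WT replicate 1, WT replicate 3, Tardbp KO replicate 1 or Tardbp KO replicate 3, where at most 2 of all genes passed. It was 4 without Tardbp KO replicate 2 (2.98% of all genes), 9 without Tardbp KO replicate 4 (9.96%) and 15 without WT replicate 2 (13.1%). Without Tardbp KO replicates 1 and 3, the libraries with the highest lymphocyte markers, it was 0, as for all genes, and 13 members had an unadjusted p under 0.05, beside 12.5% of all genes.

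edgeR's exact test, which does not carry the uncertainty of each gene's dispersion, called 5 members (13.9%) at the study's limits, against 2.48% of all genes. These were Mt1 and Mt2, higher in Tardbp KO (1.04% of all genes), and Tfrc, Slc39a7 and Slc39a11, lower in Tardbp KO (1.44% of all genes). DESeq2's Wald test called the same 5, with 3.31% of all genes called. All libraries of one genotype lay on the same side of all libraries of the other for 16 members, 2 above (9.07% of all genes) and 14 below (9.62% of all genes).

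**Figure D1:**
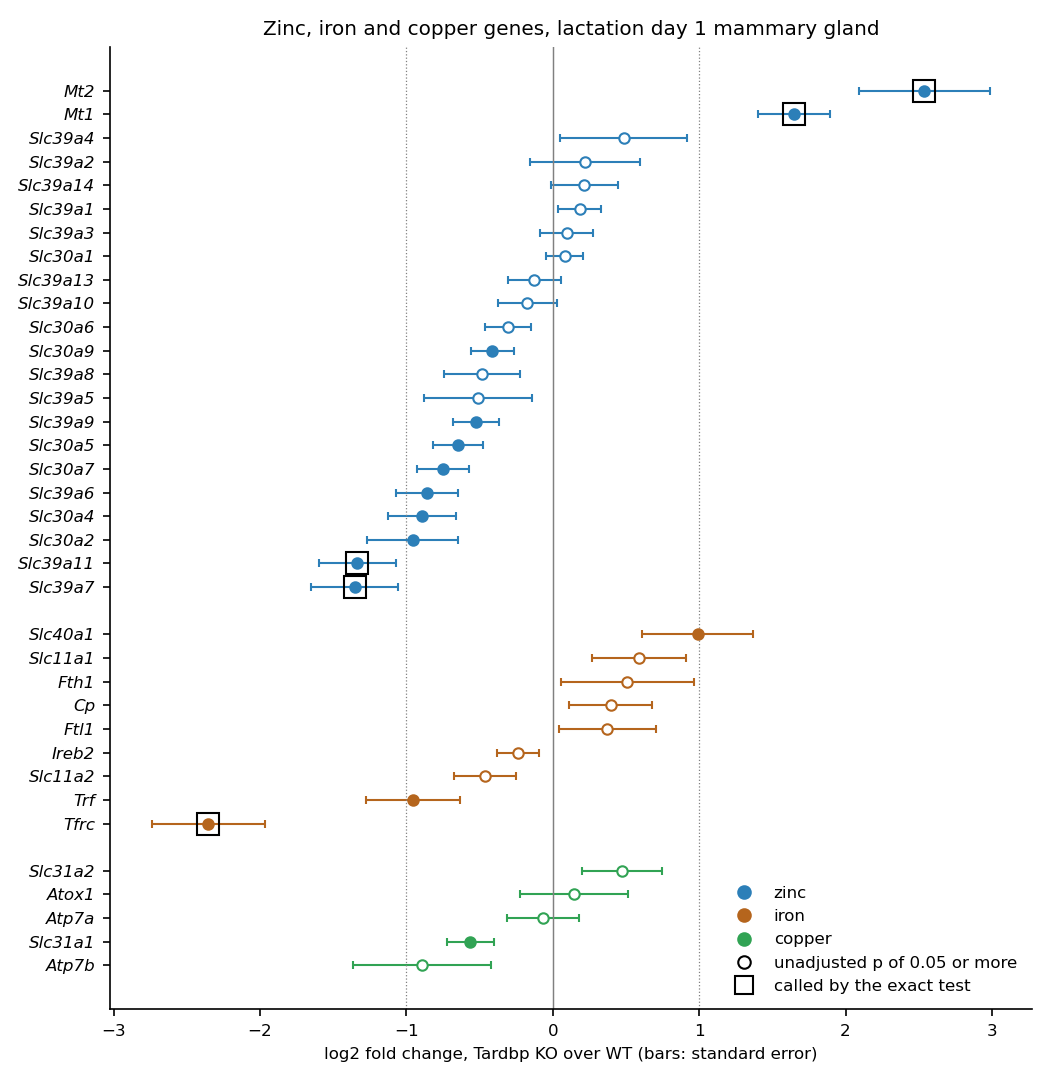
Log2 fold change of Tardbp KO over WT (x axis) for the 36 tested members, by metal, with SE as bars. Filled points have an unadjusted p under 0.05, squares mark the 5 members called by the exact test, and dotted lines mark a log2 fold change of 1 in each direction. Mt2 (2.54) and Mt1 (1.65) are at the top, and Tfrc (-2.35) is lowest.

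The metallothionein genes had the highest log2 fold changes of the members. They bind zinc and copper through cysteines, and MTF-1 induces both genes. Mt1 (chr8:96702989-96704225, NCBIM37) measured 114, 173 and 140 CPM in the WT libraries and 462, 300, 528 and 493 CPM in the Tardbp KO libraries, in the order of their replicate numbers, which is kept for every gene. The lowest Tardbp KO library was above the highest WT library, and the means were 142 ± 29.4 (SD, n = 3) and 446 ± 101 (SD, n = 4). The log2 fold change was 1.65 (SE 0.245, adjusted p = 0.0537, exact test adjusted p = 6.91e-07). Mt2, its neighbour (chr8:96696518-96697467), measured 30.9, 58.5 and 30.9 CPM in WT and 382, 101, 238 and 211 CPM in Tardbp KO. Its groups did not overlap either, although Tardbp KO replicate 2 was well under the other three, and the log2 fold change was 2.54 (SE 0.448, adjusted p = 0.0678, exact test adjusted p = 1.51e-05). Tardbp KO replicate 2 was the lowest of its group for both genes and WT replicate 2 the highest of its own. By the column names, lane 4 alone held both genotypes (WT replicate 2 and Tardbp KO replicates 3 and 4). There the log2 fold changes were 1.56 for Mt1 and 1.94 for Mt2, with no test. Without Tardbp KO replicates 1 and 3, the libraries with the highest lymphocyte markers, they were 1.48 and 1.96 (adjusted p = 0.312 for both). The lymphocyte sum was 230, 39.9, 317 and 68.0 CPM in the Tardbp KO libraries, lowest in replicate 2 as for both genes. Mt1 was higher in Tardbp KO replicate 4 than in replicate 1, unlike that sum. The part of lymphocytes in these differences was not tested. Mt1 was the most abundant zinc gene per length in WT, at 189 ± 39.0 CPM per kilobase of exon (SD, n = 3), above Mt2 at 72.1 ± 28.7. In Tardbp KO the levels per kilobase were 592 ± 134 and 419 ± 208 (SD, n = 4). Neither transcript holds a run of UG, the letters TDP-43 is known to bind.

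The ZnT genes, which load vesicles with zinc or export it, were lower or near the WT level. Of the 9, 7 were tested, 6 of them lower and 1 higher. Of the lower ones, 5 had an unadjusted p under 0.05, beside 10.7% of all genes that were lower at this limit. The median log2 fold change of the 7 was -0.65, against 0.05 for all genes. Slc30a4 and Slc30a2 stand for the milk route: ZnT4 is the transporter lost in the lethal milk mouse, and ZnT2 loads zinc into secretory vesicles. Slc30a4 (chr2:122506969-122528399) measured 152, 103 and 131 CPM in WT and 87.0, 80.5, 46.0 and 64.0 CPM in Tardbp KO, without overlap (log2 fold change -0.89, SE 0.233, adjusted p = 0.0949). Slc30a2 (chr4:133899096-133910399) measured 92.1, 48.3 and 48.0 CPM in WT and 23.3, 26.6, 30.7 and 48.9 CPM in Tardbp KO (log2 fold change -0.96, SE 0.310, adjusted p = 0.137). Here Tardbp KO replicate 4 was at the level of WT replicates 2 and 3, so the groups overlapped, and the unadjusted p was no longer under 0.05 without WT replicate 1. In lane 4, the log2 fold change was -0.28 for Slc30a2 and -0.91 for Slc30a4.

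Slc30a5 and Slc30a7 feed zinc to the early secretory pathway, where it is built into enzymes. Slc30a5 measured 108, 67.4 and 76.8 CPM in WT and 55.4, 52.1, 53.8 and 53.4 CPM in Tardbp KO (log2 fold change -0.65, SE 0.169, adjusted p = 0.0949). Slc30a7 measured 127, 78.9 and 85.8 CPM in WT and 56.8, 57.5, 55.2 and 61.8 CPM in Tardbp KO (log2 fold change -0.75, SE 0.177, adjusted p = 0.0845). Both were nearly level over the Tardbp KO libraries, with an SD of 1.34 and 2.84 CPM (n = 4), and spread more in WT, with an SD of 21.3 and 26.2 CPM (n = 3). Slc30a6, the partner of Slc30a5, was below WT in every Tardbp KO library too, at a log2 fold change of -0.30 (SE 0.159, adjusted p = 0.310). Slc30a9, a zinc transporter of mitochondria, measured 62.5, 45.2 and 54.4 CPM in WT and 39.6, 44.6, 41.0 and 37.2 CPM in Tardbp KO, a small difference (log2 fold change -0.41, SE 0.145, adjusted p = 0.156). Its unadjusted p was no longer under 0.05 without WT replicate 1 or WT replicate 3. Slc30a1, the zinc exporter of the cell surface and a known MTF-1 target, overlapped between the genotypes at a log2 fold change of 0.08 (SE 0.126, adjusted p = 0.748). Slc30a10 had no count in any library, which allows up to 0.0614 CPM in Tardbp KO replicate 3 and up to 0.113 CPM in WT replicate 1 (3 counts). Slc30a3 had at most 2 counts in a library, under this floor.

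Among the 13 ZIP genes, all tested, 4 were lower at an unadjusted p under 0.05 and none was higher, beside 10.7% of all genes in each direction. The median log2 fold change was -0.17, nearer to that of all genes than the ZnT median. Slc39a7 and Slc39a11 were called by the exact test. Slc39a7, the ZIP that releases zinc from the endoplasmic reticulum and Golgi, measured 26.7, 11.5 and 15.8 CPM in WT and 8.71, 5.41, 6.18 and 7.84 CPM in Tardbp KO. The groups did not overlap (log2 fold change -1.35, SE 0.300, adjusted p = 0.0793, exact test adjusted p = 0.00278). This gene (chr17:34165212-34168635) shares 80.1% of its exon bases with the overlapping gene Gm20427 on the same strand, and reads over both were not counted, so its level rests on the rest of the exons. Slc39a11 (chr11:113106167-113511393) measured 114, 54.9 and 96.3 CPM in WT and 42.9, 32.0, 26.0 and 39.3 CPM in Tardbp KO, again without overlap (log2 fold change -1.34, SE 0.262, adjusted p = 0.0712, exact test adjusted p = 0.000394).

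Slc39a6, a ZIP of the plasma membrane, measured 80.9, 41.9 and 74.3 CPM in WT and 37.3, 38.5, 32.4 and 36.6 CPM in Tardbp KO. WT replicate 2 was close to the Tardbp KO libraries, without overlap (log2 fold change -0.86, SE 0.214, adjusted p = 0.0876). Slc39a9 measured 99.4, 67.5 and 85.3 CPM in WT and 53.2, 57.5, 63.1 and 60.0 CPM in Tardbp KO (log2 fold change -0.52, SE 0.156, adjusted p = 0.118). In 8 of the 9 zinc transporter genes lower at an unadjusted p under 0.05, WT replicate 2 was the lowest WT library. The remaining ZIP genes, Slc39a1, Slc39a2, Slc39a3, Slc39a4, Slc39a5, Slc39a8, Slc39a10, Slc39a13 and Slc39a14, had log2 fold changes from -0.51 to 0.48 and adjusted p-values from 0.328 to 0.805. Of these, Slc39a5 lay below WT in every Tardbp KO library, at under 1 CPM in all libraries. Slc39a14, which carries zinc and free iron, holds the longest run of UG among the members, 12 in its 3′ untranslated region, and overlapped between the genotypes (log2 fold change 0.22, SE 0.231). A run of at least 3 UG was in 75% of the members and in 71.5% of all tested genes, and Slc39a7 has none.

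**Figure D2:**
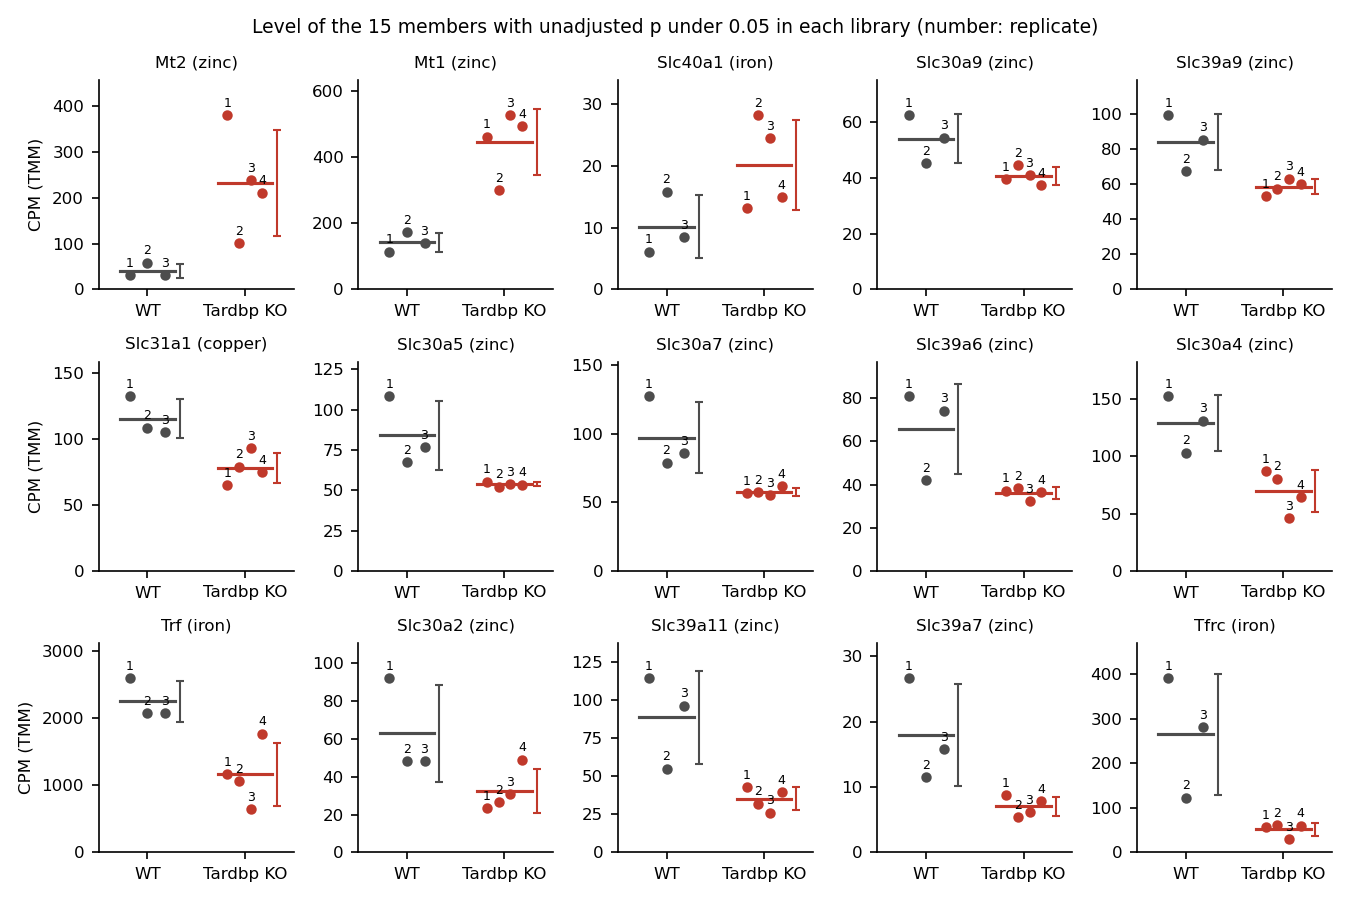
CPM (TMM scaled, y axis) of the 15 members with an unadjusted p under 0.05 in each of the 3 WT and 4 Tardbp KO libraries, with the replicate number over each point, the mean as a line and the SD as a bar beside it. The groups overlap for Slc40a1 and Slc30a2 and not for the other 13, and WT replicate 2 is often the WT library nearest to Tardbp KO, as for Tfrc (123 CPM).

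In the iron group, Tfrc had the largest difference between the genotypes. An unadjusted p under 0.05 was reached by 3 of the 9 genes, Tfrc and Trf lower and Slc40a1 higher, beside 21.4% of all genes. The median log2 fold change was 0.37, which was 0.11 without WT replicate 1 and 0.15 without Tardbp KO replicate 4. Tfrc (chr16:32609006-32632880), the transferrin receptor and carrier of the 4 elements printed above, measured 391, 123 and 281 CPM in WT and 56.2, 61.6, 29.8 and 59.9 CPM in Tardbp KO. Even the lowest WT library was above the highest Tardbp KO library, and WT replicate 2 was far below the other WT libraries. The means were 265 ± 135 (SD, n = 3) and 51.9 ± 14.9 CPM (SD, n = 4), a log2 fold change of -2.35 (SE 0.387, adjusted p = 0.0620, exact test adjusted p = 2.38e-06). In lane 4 it was -1.45, and with each library left out in turn it was -2.70 to -1.96. Erythroid cells are rich in Tfrc, and the sum of 5 erythroid markers was 70.5 to 378 CPM in WT and 60.6 to 739 CPM in Tardbp KO, lowest in Tardbp KO replicate 1 and highest in Tardbp KO replicate 2. Tfrc was at 56.2 and 61.6 CPM in those libraries, and at 391 CPM in the WT library with the lowest erythroid sum. The part of erythroid cells in the Tfrc difference was not tested.

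Trf encodes transferrin, which the lactating gland also secretes into milk. It measured 2597, 2071 and 2070 CPM in WT and 1168, 1060, 646 and 1767 CPM in Tardbp KO, without overlap (log2 fold change -0.95, SE 0.323, adjusted p = 0.146). Its unadjusted p was no longer under 0.05 without WT replicate 1. The annotation holds a second gene named Trf that shares 63.7% of its exon bases, and reads over both were not counted. Tardbp KO replicate 3 was lowest and replicate 4 highest in Trf, as they were in the sum of the luminal secretory markers. Most of that sum was Csn2, at 30945 of 55405 CPM in Tardbp KO replicate 3 and 83401 of 125992 CPM in replicate 4. Csn2, Wap, Lalba and Elf5 were lower in Tardbp KO, while Krt8 and Krt18 were higher (log2 fold changes of 0.55 and 0.64). The part of the luminal cells in the Trf and zinc transporter differences was not tested.

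Slc40a1, ferroportin, the iron exporter, measured 6.13, 15.8 and 8.47 CPM in WT and 13.1, 28.2, 24.4 and 14.9 CPM in Tardbp KO. WT replicate 2 was above Tardbp KO replicates 1 and 4, so the groups overlapped (log2 fold change 0.99, SE 0.380, adjusted p = 0.182). The unadjusted p was no longer under 0.05 without WT replicate 1, WT replicate 3, Tardbp KO replicate 2 or Tardbp KO replicate 3. Slc40a1 and Slc11a1, an iron transporter of phagosomes, are high in macrophages. Slc11a1 was 6.43 to 9.45 CPM in WT and 6.37 to 16.3 CPM in Tardbp KO (log2 fold change 0.59, SE 0.321, adjusted p = 0.330), and both genes were highest in Tardbp KO replicate 2, where the 6 myeloid markers summed to 2159 CPM. That sum was higher in Tardbp KO replicates 3 (2626 CPM) and 4 (2444 CPM), with Cd14 at 2203 and 2262 CPM there and 1648 CPM in Tardbp KO replicate 2, while the other 5 markers were highest in Tardbp KO replicate 2. The part of macrophages was not tested.

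The ferritins store iron and were the most abundant members with transferrin. Fth1, the heavy chain, measured 1854, 4978 and 3559 CPM in WT and 2556, 4970, 4247 and 7964 CPM in Tardbp KO. The groups overlapped, with WT replicate 2 as high as Tardbp KO replicate 2 (log2 fold change 0.51, SE 0.453, adjusted p = 0.561). Per length it was the highest of all members, at 4000 ± 1806 CPM per kilobase in WT (SD, n = 3), above Trf at 679 ± 91.9 and Ftl1 at 676 ± 281. These levels divide by all exon bases. For Trf, reads over the 63.7% of exon bases shared with the second Trf gene were not counted. The Trf level per kilobase is therefore too low, and its order beside Ftl1 is not settled. Ftl1, the light chain, had a log2 fold change of 0.37 (SE 0.333, adjusted p = 0.565). Both ferritins have near-identical copies in the genome, and reads that mapped to several places were not counted, so their levels are uncertain. The members with a match in the 5′ untranslated region, Fth1, Ftl1 and Slc40a1, had log2 fold changes from 0.37 to 0.99 with overlapping groups. The member with 4 in the 3′ untranslated region had -2.35 without overlap. The part of the elements in these levels was not tested. RNA counts do not measure translation, and the search misses elements whose stem is not fully paired, so other members may carry some. Of the remaining iron genes, Slc11a2 (a ferrous iron importer, also called DMT1), Cp (the ferroxidase ceruloplasmin) and Ireb2 (an iron regulatory protein) had log2 fold changes of -0.46 (SE 0.211), 0.40 (SE 0.283) and -0.24 (SE 0.145), and their adjusted p-values were 0.251, 0.466 and 0.387.

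Of the 5 copper genes, Slc31a1 alone had an unadjusted p under 0.05, beside 21.4% of all genes, and none was called by the exact test. The median log2 fold change was -0.07, which was -0.28 without Tardbp KO replicate 4 and -0.23 without Tardbp KO replicate 2. Slc31a1 (chr4:62021761-62052803), the high-affinity copper importer, measured 133, 109 and 105 CPM in WT and 65.4, 79.2, 93.4 and 75.1 CPM in Tardbp KO. The groups did not overlap (log2 fold change -0.56, SE 0.161, adjusted p = 0.109). Atp7b, the copper ATPase lost in the toxic milk mouse, measured 34.8, 36.4 and 28 CPM in WT and 26.9, 22.3, 4.48 and 17.6 CPM in Tardbp KO. All Tardbp KO libraries were below WT, but they were far apart from each other, with Tardbp KO replicate 3 lowest (log2 fold change -0.89, SE 0.469, adjusted p = 0.312). Atox1 was the most abundant copper gene per length (247 ± 84.7 CPM per kilobase in WT, SD, n = 3) and measured 84.0, 142 and 174 CPM in WT and 126, 113, 94.9 and 256 CPM in Tardbp KO. Its groups overlapped (log2 fold change 0.14, SE 0.370, adjusted p = 0.862). Atp7a and Slc31a2 overlapped as well, with log2 fold changes of -0.07 (SE 0.246) and 0.47 (SE 0.273).

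**Figure D3:**
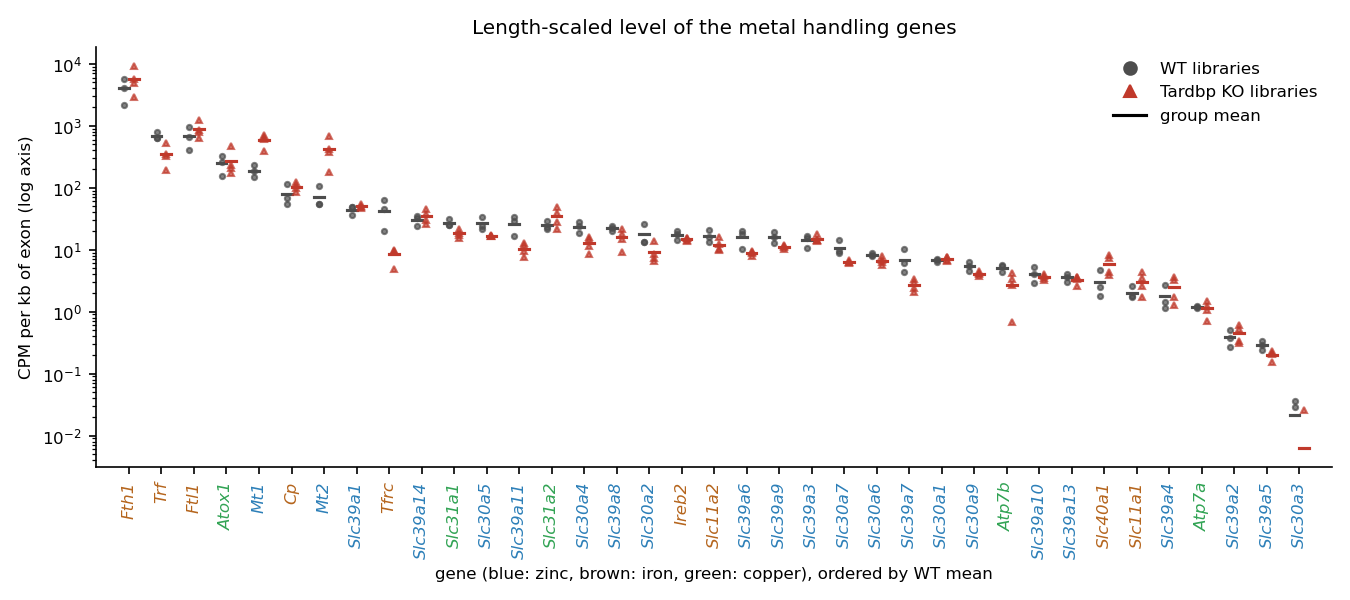
CPM per kilobase of exon (log axis) for the members, ordered by the WT mean, with points for libraries and lines for group means. Lengths include exon bases shared with other genes, over which reads were not counted. Libraries at 0 (Slc30a3) and Slc30a10 are not drawn. Fth1 is highest at 4000 in WT, and Tfrc drops from 42.8 in WT to 8.39 in Tardbp KO while Mt2 goes from 72.1 to 419.

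Side by side, an unadjusted p under 0.05 was reached by 11 of the 22 tested zinc genes (2 higher and 9 lower), 3 of the 9 iron genes (1 higher and 2 lower) and 1 of the 5 copper genes, which was lower. Over all genes 21.4% reached it, 10.7% in each direction, and the copper count is near that share. The exact test called 4 zinc genes, 1 iron gene and no copper gene, beside 2.48% of all genes. The median log2 fold changes were -0.36 for zinc, 0.37 for iron and -0.07 for copper, and 0.05 for all genes. With libraries scaled by size only, they were 0.03, 0.70 and 0.33, and relative to the median of all genes under the same scaling -0.39, 0.28 and -0.09. Relative to all genes in the main fit they were -0.41, 0.32 and -0.12. The difference between metals was not tested. The 22 zinc genes do not move as a group, since the metallothioneins are higher and the transporters lower or level. By library, the ZnT median of log2 CPM relative to WT lay from -0.66 to -0.52 in Tardbp KO and from -0.27 to 0.26 in WT, without overlap, while the ZIP median lay from -0.34 to -0.08 and from -0.30 to 0.13. The iron median lay from -0.33 to 0.42 in Tardbp KO and from -0.16 to 0.04 in WT, with overlap. The copper median, over 5 genes, lay from -0.61 to -0.14 in Tardbp KO and from -0.08 to 0.15 in WT, without overlap. The median of all tested genes did not overlap either, at 0.0147 to 0.0731 in Tardbp KO and 0.000453 to 0.00747 in WT. Of all single genes, 18.7% showed no overlap. In lane 4 all 15 members with an unadjusted p under 0.05 kept their direction, and 14 of them had a smaller change than over all lanes. The only WT library of that lane is WT replicate 2, so an effect of the lane and of this library cannot be told apart. Lane and genotype cannot be told apart in the other lanes, which each held a single genotype.

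**Figure D4:**
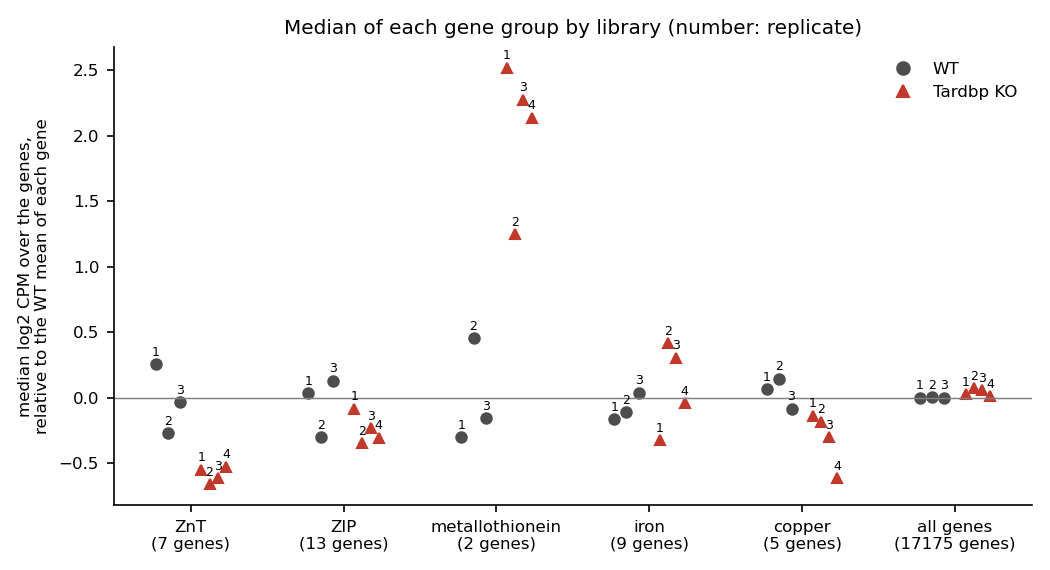
Median over the genes of a group of the log2 CPM relative to each gene's WT mean (y axis), in each of the 3 WT and 4 Tardbp KO libraries, with the replicate number over each point. The metallothionein medians of Tardbp KO are 1.25 to 2.52. The ZnT and copper medians of Tardbp KO are all below those of WT, and the ZIP and iron medians overlap. The medians of all tested genes are all above those of WT in Tardbp KO, at 0.0147 to 0.0731.

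A further 48 genes of the same pathways were counted from a list of zinc, iron and copper genes. Of these, 40 were tested, and 6 were higher and 5 lower at an unadjusted p under 0.05, beside 10.7% of all genes in each direction. The exact test called 3 (2.48% of all genes), all of the iron group. Cybrd1, a ferric reductase of the cell surface, measured 0.752, 1.34 and 0.535 CPM in WT and 2.76, 4.72, 2.37 and 3.57 CPM in Tardbp KO (log2 fold change 1.93, SE 0.413, adjusted p = 0.0784). Steap2, a reductase of iron and copper, measured 25.6, 31.5 and 25.5 CPM in WT and 11.7, 14.5, 11.2 and 10.7 CPM in Tardbp KO (log2 fold change -1.19, SE 0.165, adjusted p = 0.0517). Flvcr2, under its older name Mfsd7c in the annotation, measured 17.3, 7.63 and 15.3 CPM in WT and 3.95, 3.68, 2.87 and 4.32 CPM in Tardbp KO (log2 fold change -1.86, SE 0.299, adjusted p = 0.0578). None of the 3 overlapped between the genotypes. Chosen after their values were seen, Fbxl5, which marks Ireb2 protein for degradation when iron is present, and Hmox1, which breaks down haem, had log2 fold changes of 0.78 (SE 0.157, adjusted p = 0.0733) and 1.82 (SE 0.614, adjusted p = 0.146). Hmox1 was at 125 CPM in Tardbp KO replicate 3 against 23.8 to 27.5 in the other libraries of its genotype. The remaining genes at an unadjusted p under 0.05 went in both directions. Their log2 fold changes were 1.58 (Tmem163, of the zinc list), 0.57 (Flvcr1), 0.38 (Pcbp2), -1.21 (Hephl1), -0.42 (Steap3) and -0.35 (Cox19), with adjusted p-values from 0.106 to 0.212.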

How the data were processed

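RNA-seq was done on mammary glands at lactation day 1 (3 WT and 4 Tardbp KO libraries). The authors made TruSeq libraries, mapped paired reads to NCBIM37 (mm9) with STAR (2.4.2a in the methods, 2.5.2a in the submitters' processing notes) and deposited raw counts per gene from featureCounts 1.4.6-p5 on GENCODE vM1. Its command line gives no strand, pair or multimapping setting: reads of either strand and each mate entered the count, and reads over several genes or places were left out. 1 more library is named there and was not analysed here.

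Libraries were grouped by label. Leaving out 37 mitochondrial and 580 ribosomal genes, 17175 genes that had 5 or more counts in 4 or more of the 7 libraries were tested with edgeR 4.0.16 (TMM, quasi-likelihood test, Benjamini-Hochberg adjustment), in R 4.3.3. Adjusted p-values are from this test unless the exact test is named, and SE is that of its log2 fold change. Levels are TMM CPM. Members, lists and tests were chosen with earlier results of these data known. All members are named. Values in every library are given for members with an unadjusted p under 0.05, for those called by the exact test and for the most abundant member per length of each metal (Atp7b was added after its values were seen), and for other pathway genes that meet both limits. Alternatives were other scalings, filters, tests (edgeR's exact test, DESeq2 1.42.0), libraries left out, a replicate block and lane 4. The fits were tested on simulated data. Tables and figures used Python 3.11.15, pandas 2.3.3 and matplotlib 3.10.9. Totals of 36007737 to 42811337 counts bound counting error only. Older symbols of 3 pathway genes were matched through RefSeq.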

Additional observations from a re-analysis of the deposited data

Results flagged for a closer look

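Among 57 values tested for a library far from the other Tardbp KO libraries (4 libraries), 3 were found, and chance alone marks about 1 in 20. Slc39a3 was at 72.8 CPM in Tardbp KO replicate 4 and at 56.4 to 57.2 CPM in the other Tardbp KO libraries. Hmox1 was at 125 CPM in Tardbp KO replicate 3 and at 23.8 to 27.5 CPM in the others. The summed level of the myoepithelial markers was 2019 CPM in Tardbp KO replicate 1 and 705 to 786 CPM in the others.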

How the results depend on the processing

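The member fold changes and the medians by metal were recomputed under 18 alternatives and the counts of calls under 17, since lane 4 has no test, and of the 648 member values 629 kept their direction. No member with an unadjusted p under 0.05 turned. Members that turned had small changes: with library size only, Slc30a6 (0.080), Slc39a10 (0.20), Slc39a13 (0.26), Ireb2 (0.15) and Atp7a (0.33). With lane 4 only, Slc39a3 (-0.028), Slc39a4 (-0.015), Slc39a10 (0.20), Cp (-0.16) and Ireb2 (0.042) turned. With libraries left out in turn the ranges were -0.068 to 0.21 for Slc39a3, -0.37 to 0.052 for Slc39a10, -0.23 to 0.073 for Atp7a and -0.28 to 0.38 for Atox1. Whether the replicate numbers pair the libraries is not settled by these few values. The correlation of deviations of same-numbered libraries was 0.351, 0.0941 and -0.058, and that of differently numbered libraries -0.388 to 0.254. With a replicate block (Tardbp KO replicate 4 left out), Slc39a3 was -0.0039, Atp7a 0.063 and Atox1 -0.23, and 18 members had an unadjusted p under 0.05, beside 24.5% of all genes. The block moved the count of genes with an adjusted p under 0.05 and the fold limit from 80 to 498 on the same 6 libraries.

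The count of genes called was 1 with no filter, 426 with the exact test, 568 with DESeq2, 1 at an adjusted p under 0.05 with the fold limit, and 933 at an adjusted p under 0.1 without it. At this last limit 9 members passed, and 5 members were called with the exact test and 5 with DESeq2. With the quasi-likelihood test, 3674 genes had an unadjusted p under 0.05. With library size only, 9 members were higher and 7 lower at an unadjusted p under 0.05 (30.8% and 3.05% of all genes), and the medians moved to 0.028 (zinc), 0.70 (iron) and 0.33 (copper). With lane 4 only they were -0.19, 0.042 and -0.28. With libraries left out in turn, the medians ranged from -0.39 to -0.28 (zinc), 0.11 to 0.49 (iron) and -0.28 to -0.046 (copper). The cause was not tested. Slc30a3 and Slc30a10 had too few counts for a test at this depth.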
